A study of Homo sapiens with 6 samples.

Results

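The transcripts of 64 genes that encode the autophagy machinery, the lysosomal proton pump and the cathepsins were followed by RNA sequencing in SW1353, a human cell line established from a chondrosarcoma (a malignant tumour that forms cartilage). The genes were taken by symbol from the 60691 genes of the count table. The rule itself uses no measured value, but it was chosen with earlier results of these data known. The symbol rule covered the numbered ATG genes with at most 1 closing letter from A to D, the V0 and V1 subunits of the pump (ATP6V0 and ATP6V1 symbols) and every cathepsin (CTS and 1 letter). Named in addition were ULK1, WIPI1, SQSTM1, MAP1LC3B, GABARAP, GABARAPL1, GABARAPL2, ATP6AP1, ATP6AP2, LAMP1 and LAMP2. By role, 23 genes belong to autophagy, 24 to the proton pump, 15 to the cathepsins and 2 to the lysosomal membrane.

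Of the 6 libraries, 3 came from cultures given a lentiviral short hairpin RNA labelled shSIRT1, and 3 from cultures given a lentiviral hairpin against firefly luciferase, labelled shfirefly. All cultures spent the 48 h after seeding in 3% oxygen, so no culture in ambient oxygen entered the comparison. The study asked how the deacetylase SIRT1 relates to transcription by HIF-2α, the product of EPAS1 and a factor that is stable at low oxygen. The labels disagree on the hairpin, since the titles, the treatment field and the design name SIRT1 whereas the treatment protocol names EPAS1, and no hairpin sequence is given. SIRT1 was at 12.9, 13.2 and 14.7 CPM (read counts scaled to a common library size with TMM factors) in the shSIRT1 libraries, against 25.99, 24.8 and 24.0 CPM in the shfirefly libraries. EPAS1 was at 245, 226 and 227 CPM in the shSIRT1 libraries, against 477, 483 and 409 CPM in the shfirefly libraries. Both genes were thus lower in every library labelled shSIRT1, with log2 fold changes of -0.88 ± 0.07 (SE) for SIRT1 and -0.97 ± 0.06 for EPAS1 and adjusted p-values of 2.3e-09 and 5.8e-07 (edgeR quasi-likelihood test, Benjamini-Hochberg over all genes tested). Which of these falls, if either, goes with a change described below cannot be told apart in this design.

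Macroautophagy encloses cytoplasm in a double membrane, the autophagosome, which then fuses with the lysosome. The ULK1 kinase starts the process, the ATG14 form of the class III phosphatidylinositol kinase and the WIPI proteins mark the site, ATG9 and ATG2 bring in lipid, and a ubiquitin-like conjugation system couples the ATG8 proteins (LC3 and GABARAP) to the membrane. The vacuolar ATPase acidifies the lysosome with a cytosolic V1 sector that splits ATP and a membrane V0 sector that carries protons, and cathepsins are the acid proteases that digest the delivered cargo. In cartilage these proteases are also known for their part in the breakdown of matrix.

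Many genes of lysosomes and autophagy carry a CLEAR element near their start, an E-box (CACGTG) with preferred flanks that the factors TFEB, TFE3 and MITF bind, so the promoters of the genes were read for it. Windows of 300 bases, from 250 before to 50 after each start, came from RefSeq (GRCh38.p14), in which 50 of the 64 genes had a promoter. The 5 genes whose window holds the 6-letter E-box with a T before it and an A after it are shown, 5′ to 3′ on the gene's own strand, because this is the form closest to the CLEAR element. Capitals mark every CACGTG, with the flanking T and A where both are present. The windows are chr13:113296989-113297288 (+ strand) for LAMP1, chr20:45891085-45891384 (+) for CTSA, chr16:67481108-67481407 (- strand) for ATP6V0D1, chr9:114587519-114587818 (+) for ATP6V1G1 and chr3:112561913-112562212 (-) for ATG3.
LAMP1: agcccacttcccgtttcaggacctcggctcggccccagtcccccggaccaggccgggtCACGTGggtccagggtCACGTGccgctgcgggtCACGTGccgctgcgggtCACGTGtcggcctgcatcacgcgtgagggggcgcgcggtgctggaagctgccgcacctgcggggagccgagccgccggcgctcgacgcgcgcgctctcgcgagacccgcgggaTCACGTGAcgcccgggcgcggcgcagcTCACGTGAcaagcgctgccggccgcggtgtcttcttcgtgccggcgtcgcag
CTSA: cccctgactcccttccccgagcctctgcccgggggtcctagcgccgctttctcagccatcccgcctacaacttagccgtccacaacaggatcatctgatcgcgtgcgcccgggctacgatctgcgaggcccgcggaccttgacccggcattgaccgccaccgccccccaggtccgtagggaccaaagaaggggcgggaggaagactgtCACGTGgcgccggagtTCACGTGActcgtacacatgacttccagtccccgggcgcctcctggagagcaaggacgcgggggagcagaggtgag
ATP6V0D1: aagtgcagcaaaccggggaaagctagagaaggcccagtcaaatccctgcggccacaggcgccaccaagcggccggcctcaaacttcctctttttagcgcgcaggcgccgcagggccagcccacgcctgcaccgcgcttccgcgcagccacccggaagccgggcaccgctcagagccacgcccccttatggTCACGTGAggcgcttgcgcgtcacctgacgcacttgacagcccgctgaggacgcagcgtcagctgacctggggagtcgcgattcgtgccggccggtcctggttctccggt
ATP6V1G1: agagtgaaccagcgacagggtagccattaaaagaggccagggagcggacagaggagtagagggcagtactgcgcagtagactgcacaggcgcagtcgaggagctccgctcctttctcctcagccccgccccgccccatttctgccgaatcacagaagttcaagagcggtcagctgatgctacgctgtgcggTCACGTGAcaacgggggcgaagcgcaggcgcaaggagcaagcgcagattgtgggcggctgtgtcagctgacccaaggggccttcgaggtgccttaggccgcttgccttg
ATG3: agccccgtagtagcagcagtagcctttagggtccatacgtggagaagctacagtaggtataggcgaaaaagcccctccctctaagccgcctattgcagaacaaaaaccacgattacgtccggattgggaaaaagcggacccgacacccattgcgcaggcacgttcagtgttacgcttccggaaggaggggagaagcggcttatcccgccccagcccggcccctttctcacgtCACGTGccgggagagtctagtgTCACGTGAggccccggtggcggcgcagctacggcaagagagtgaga

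The LAMP1 window holds 6 E-boxes, of which 2 have both flanks, and the windows of CTSA and ATG3 hold 2 E-boxes each. An E-box, which reads the same on both strands, was present in 10 of the 50 genes with a promoter (20%), against 12.1% of the 11139 tested genes with one and 8.77% of all 27305 genes of the RefSeq table. The flanked form was present in 5 of 50 (10%), against 2.08% of the tested genes and 1.18% of all. Among the genes lower in the shSIRT1 libraries, 5 of 19 with a promoter held an E-box and 2 (LAMP1 and CTSA) the flanked form. Among those not called, 4 of 22 held an E-box and 3 (ATP6V0D1, ATP6V1G1 and ATG3) the flanked form. The cores that hypoxia-inducible factors prefer, ACGTG and GCGTG on either strand, were present in 44% and 58% of the genes with a promoter, against 31.7% and 57.2% of the tested genes. ACGTG lies within every E-box, so the counts overlap. Either core outside an E-box was present in 70% of the genes with a promoter, against 65.6% of the tested genes. A match describes the letters of a window and does not show that a factor binds there.

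Of the 64 genes, 57 had enough reads to be tested, and in the shSIRT1 libraries 24 were lower and 3 were higher at an adjusted p under 0.05. The lower genes made up 42.1% and the higher ones 5.26% of those tested. Over all 16591 genes tested, 52.8% were called, 26.8% as higher and 26% as lower. The share of lower genes was thus above that of all genes and the share of higher genes below it. The median log2 fold change was -0.17 over the 57 genes, beside 0.00 over all genes tested. In 25 genes every shSIRT1 library lay below every shfirefly library and in 5 above; over all tested genes 59.7% had such separate ranges, 29.4% below and 30.4% above. Of the 27 called genes 0 reached a fitted change of 2-fold, and 12 of the 24 lower ones fell by at least 1.5-fold. Over all 16591 genes tested, 1579 were lower by at least 1.5-fold. Of the 23 genes of the set that averaged 50 CPM or more, a limit chosen after the values were seen, 13 were lower and 0 higher by edgeR (14 and 0 at an unadjusted p under 0.05, 13 and 0 by DESeq2, but 13 and 5 with library totals alone and 17 and 1 with an offset for GC content and length), while 36.5% of all 4125 such genes were lower and 36.4% higher. With library totals alone in place of TMM factors, 22 genes were lower and 15 higher, as the median of all tested genes then moved to 0.13; the median of the set was then -0.04. In these bulk libraries a smaller number of cells that use a gene and less of its RNA per cell cannot be told apart.

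**Figure D1:**
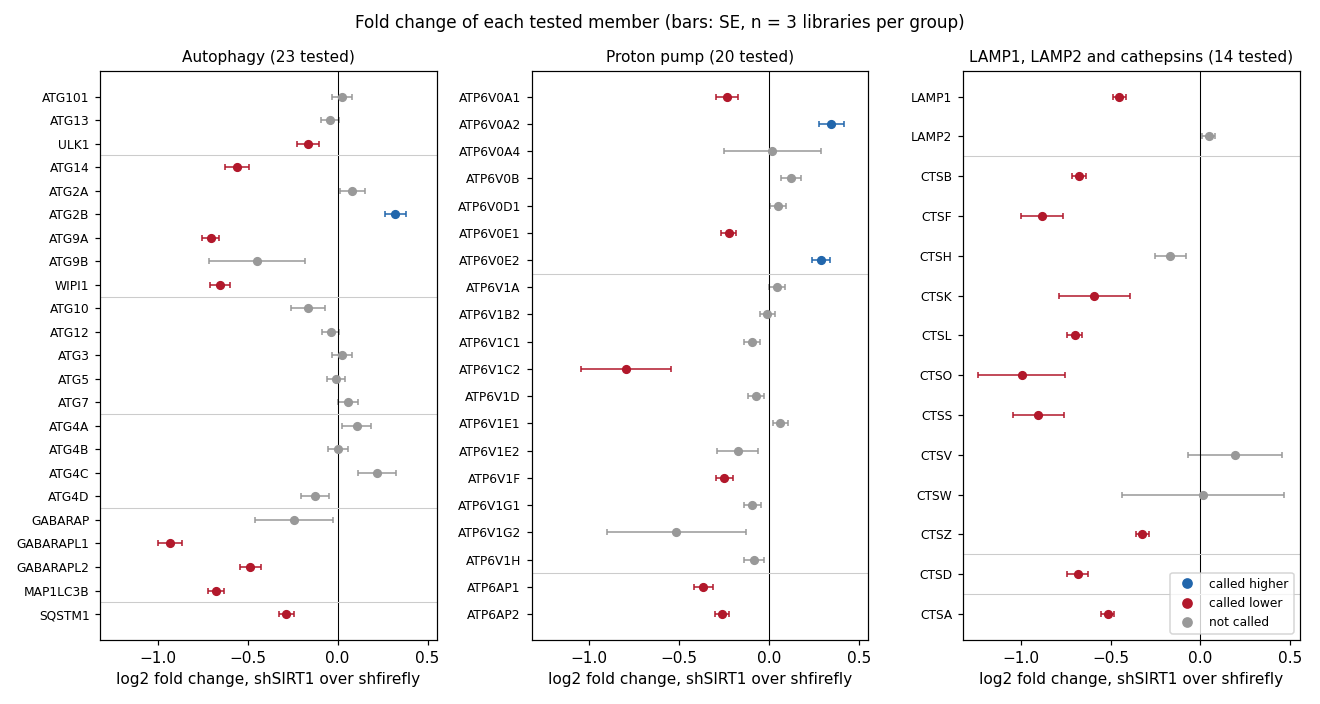
Log2 fold change (shSIRT1 over shfirefly, horizontal axis) of the 57 tested genes, with bars for the SE (n = 3 libraries per group), grouped by role and coloured by call. Cathepsins and the ATG8 family lie mostly left of 0, whereas the conjugation genes, the ATG4 proteases and most V1 subunits lie close to it; with library totals alone the pump and autophagy genes called higher number 7 each.

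The cathepsins moved most. Of 15 cathepsin genes 12 were tested, 9 were lower and 0 higher by edgeR (9 and 0 at an unadjusted p under 0.05, 8 and 0 by DESeq2), with a median log2 fold change of -0.63. The lower ones made up 75% of those tested, beside 26% of all genes tested. Together the 15 genes held 1686 ± 36.1 CPM in the shSIRT1 libraries and 2609 ± 119 CPM in the shfirefly libraries (SD, n = 3 each), which is 35.4% less. Most of that sum was CTSB, the abundant lysosomal cysteine protease with endopeptidase and dipeptidase activity, at 63.5% in the shSIRT1 libraries and 65.4% in the shfirefly libraries.

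CTSB (GRCh38 chromosome 8, 11842524 to 11869448) was at 1097, 1063 and 1050 CPM in the shSIRT1 libraries, against 1723, 1784 and 1614 CPM in the shfirefly libraries. The groups did not overlap, and the log2 fold change was -0.67 ± 0.04 (SE; adjusted p = 6.6e-12, edgeR). CTSL, a cysteine endopeptidase that also cleaves collagen and elastin (chromosome 9, 87725519 to 87731393), was at 173, 172 and 166 CPM in the shSIRT1 libraries, against 283, 287 and 260 CPM in the shfirefly libraries. Every shSIRT1 library was lower, by a log2 fold change of -0.70 ± 0.04 (adjusted p = 7.6e-12). CTSD, the main aspartic protease of lysosomes (chromosome 11, 1752752 to 1764573), was at 103, 97.4 and 90.7 CPM in the shSIRT1 libraries, against 154, 169 and 144 CPM in the shfirefly libraries. It too was lower throughout, by -0.68 ± 0.06 (adjusted p = 4.5e-07). These 3 proteases, of which CTSB and CTSL share the papain fold and CTSD does not, differed by nearly the same factor. The annotation places 41.7% of the exon bases of CTSD inside 2 genes of the same strand, which held 42 and 47 counts over all 6 libraries, against 8520 for CTSD in the shSIRT1 and 13776 in the shfirefly libraries.

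CTSA, a serine carboxypeptidase that also shields other lysosomal enzymes from breakdown, was at 170, 161 and 170 CPM in the shSIRT1 libraries, against 242, 240 and 235 CPM in the shfirefly libraries. The log2 fold change was -0.52 ± 0.04 (adjusted p = 2.3e-10), and the groups did not overlap. CTSZ, a carboxypeptidase of the cysteine class, was at 160, 154 and 158 CPM in the shSIRT1 libraries, against 199, 198 and 194 CPM in the shfirefly libraries. Its groups were also separate, with a smaller log2 fold change of -0.32 ± 0.04 (adjusted p = 1.8e-07). The 5 cathepsins above 50 CPM, CTSB, CTSL, CTSD, CTSA and CTSZ, were each lower in every shSIRT1 library and under all 17 alternative settings.

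The low-level cysteine cathepsins included some of the largest fitted changes among called genes. CTSO was at 0.848, 0.783 and 1.26 CPM in the shSIRT1 libraries, against 1.92, 1.92 and 1.87 CPM in the shfirefly libraries, a log2 fold change of -0.99 ± 0.24 (adjusted p = 0.0015) that rests on 83 counts in the shSIRT1 and 169 in the shfirefly group. CTSS, an endopeptidase best known from antigen-presenting cells, was at 2.87, 3.49 and 2.67 CPM in the shSIRT1 libraries, against 6.16, 5.55 and 5.23 CPM in the shfirefly libraries (log2 fold change -0.90 ± 0.14, adjusted p = 1.6e-05). CTSF was at 4.56, 3.88 and 4.78 CPM in the shSIRT1 libraries, against 8.14, 8.47 and 7.71 CPM in the shfirefly libraries (log2 fold change -0.88 ± 0.12, adjusted p = 1.7e-06). In each of these 3 genes all shSIRT1 libraries lay below all shfirefly libraries.

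CTSK, the collagen-degrading protease of osteoclasts that is also made by some chondrocytes and fibroblasts, was at 1.56, 1.57 and 1.53 CPM in the shSIRT1 libraries, against 2.25, 2.66 and 2.13 CPM in the shfirefly libraries. The groups did not overlap (log2 fold change -0.59 ± 0.20, adjusted p = 0.015), but the call was lost without shfirefly replicate 2 (adjusted p = 0.073) and with DESeq2 (adjusted p = 0.074). CTSH, an aminopeptidase, was lower in every shSIRT1 library without passing the test (log2 fold change -0.17 ± 0.09, adjusted p = 0.10). CTSV, a close relative of CTSL, and CTSW, known from cytotoxic lymphocytes, had log2 fold changes of 0.19 ± 0.26 and 0.02 ± 0.45 with overlapping groups. CTSC, CTSE and CTSG were not tested: CTSC, which activates granule proteases, held 18 counts in the shSIRT1 and 6 in the shfirefly libraries, CTSE held 3 and 10, and CTSG, a neutrophil protease, held 0 in all 6, which allows up to 0.0968 to 0.115 CPM per library (3 counts, counting error only).

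Scaled to exon length, CTSB was the most abundant transcript of the set, at 144 CPM per kb in the shSIRT1 libraries and 230 CPM per kb in the shfirefly libraries. CTSZ followed at 77.2 in the shSIRT1 and 96.6 in the shfirefly libraries and CTSL at 72.1 and 117, so the order of CTSZ and CTSL differed between the groups. CTSD lay at 31.0 CPM per kb in the shSIRT1 and 49.9 in the shfirefly libraries. These lengths cover all annotated exons of a gene, so levels per kb are lowest estimates where a cell uses a short isoform.

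**Figure D2:**
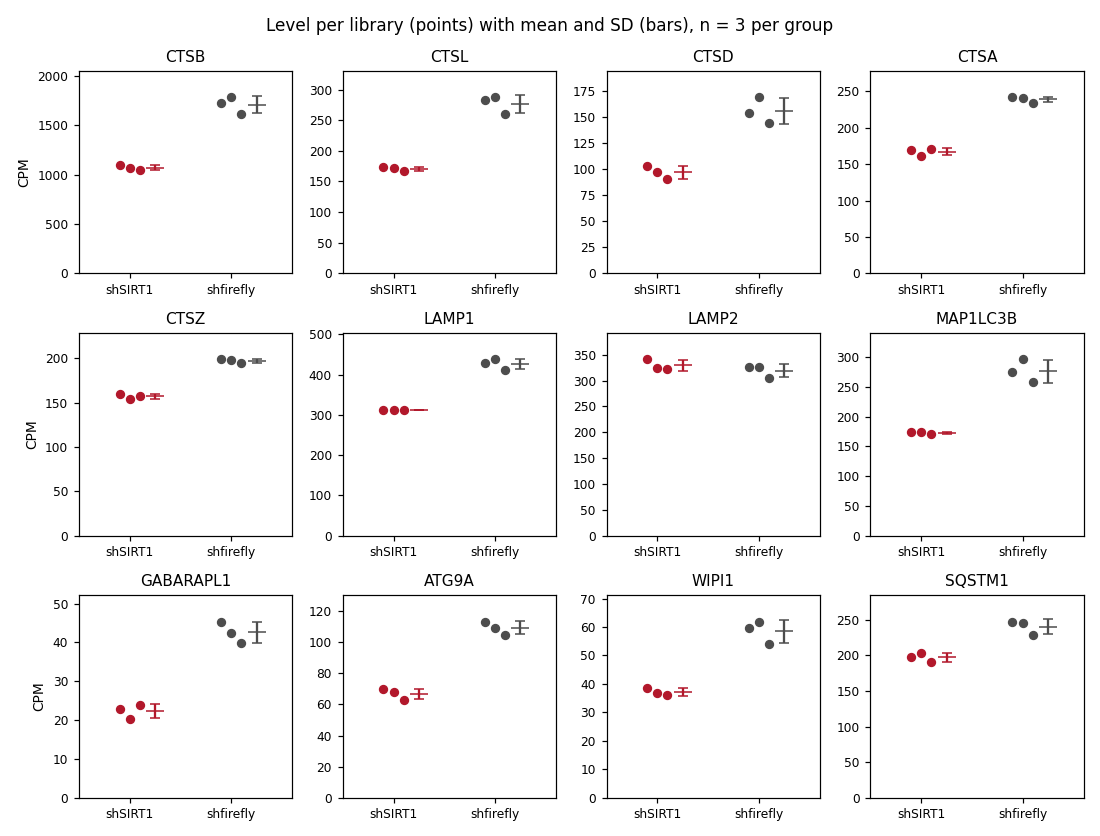
CPM (vertical axes, from 0) of 12 genes in each of the 3 shSIRT1 and 3 shfirefly libraries, as points, with the group mean and SD beside them. For 11 of the genes all shSIRT1 points lie below all shfirefly points, whereas the LAMP2 points of the groups overlap.

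The paired membrane glycoproteins of the lysosome differed from each other. LAMP1 (chromosome 13, 113297241 to 113323672), which with LAMP2 lines the inner face of the lysosomal membrane, was at 312, 312 and 311 CPM in the shSIRT1 libraries, against 429, 438 and 412 CPM in the shfirefly libraries. It fell in all shSIRT1 libraries (log2 fold change -0.45 ± 0.04, adjusted p = 8.1e-10). LAMP2, whose LAMP2A form is the receptor of chaperone-mediated autophagy, was at 341, 324 and 323 CPM in the shSIRT1 libraries, against 327, 326 and 305 CPM in the shfirefly libraries. Its groups overlapped and it was not called (0.04 ± 0.04, adjusted p = 0.35), but its sign depended on the scaling: with an offset for GC content and length it was called lower (-0.14, adjusted p = 0.028) and with library totals alone higher (0.17, adjusted p = 0.000549). The count ratio of LAMP1 to LAMP2, which TMM scaling does not touch, was 0.947 ± 0.027 in the shSIRT1 libraries and 1.34 ± 0.021 in the shfirefly libraries (SD, n = 3 each).

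Among the 23 autophagy genes, all tested, 8 were lower and 1 was higher, with a median log2 fold change of -0.13. The share called was 39.1%, beside 52.8% of all genes tested. The lower ones were 3 of the 4 ATG8 proteins, the receptor SQSTM1, 3 genes of membrane supply and nucleation (ATG9A, WIPI1 and ATG14) and ULK1. Of the conjugation enzymes 0 of 5 and of the ATG4 proteases 0 of 4 were called by edgeR, with 0 also at an unadjusted p under 0.05 and by DESeq2. Other settings called some of them: with library totals alone ATG3, ATG7, ATG4A and ATG4C were higher, and with the GC content and length offset ATG5, ATG10 and ATG12 were lower. ATG10 was also called lower without shSIRT1 replicate 3 (adjusted p = 0.022), ATG4C higher without shSIRT1 replicate 2 (adjusted p = 0.018) and ATG4D lower without shfirefly replicate 3 (adjusted p = 0.048). Summed over the class, autophagy genes held 1060 ± 11.7 CPM in the shSIRT1 libraries and 1313 ± 40.8 CPM in the shfirefly libraries (SD, n = 3 each), or 19.3% less.

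MAP1LC3B, the LC3 protein whose lipid-bound form marks autophagosomes (chromosome 16, 87383995 to 87404779), was at 174, 174 and 171 CPM in the shSIRT1 libraries, against 275, 296 and 258 CPM in the shfirefly libraries. All shSIRT1 libraries were lower (log2 fold change -0.68 ± 0.04, adjusted p = 5.8e-11). GABARAPL1, of the GABARAP branch that acts in late autophagosome growth (chromosome 12, 10212458 to 10223130), was at 22.8, 20.3 and 23.9 CPM in the shSIRT1 libraries, against 45.4, 42.4 and 39.9 CPM in the shfirefly libraries. This was the largest fall in the autophagy class (-0.93 ± 0.07, adjusted p = 2.5e-10). GABARAPL2 was at 34.8, 32.8 and 30.8 CPM in the shSIRT1 libraries, against 43.3, 47.9 and 46.8 CPM in the shfirefly libraries (-0.49 ± 0.06, adjusted p = 4.4e-07), again without overlap. The remaining one, GABARAP, gave 1.24, 1.73 and 1.49 CPM in the shSIRT1 libraries and 1.86, 1.81 and 1.61 CPM in the shfirefly libraries, which overlapped (-0.24 ± 0.22, adjusted p = 0.36). Of its exon bases 30.5% are shared with a readthrough gene of the same strand that holds 0 counts in all libraries; whether reads were discarded there was not tested.

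SQSTM1 (p62), which carries ubiquitin-tagged cargo to LC3, was at 198, 203 and 191 CPM in the shSIRT1 libraries, against 248, 246 and 229 CPM in the shfirefly libraries. The fall was small and without overlap (-0.29 ± 0.04, adjusted p = 3.3e-06). ATG9A, the multispanning lipid scramblase whose vesicles seed the membrane (chromosome 2, 219219380 to 219229717), was at 69.6, 67.8 and 63.0 CPM in the shSIRT1 libraries, against 113, 109 and 105 CPM in the shfirefly libraries (-0.71 ± 0.05, adjusted p = 5.0e-11). WIPI1, which binds phosphatidylinositol 3-phosphate, was at 38.6, 36.9 and 36.0 CPM in the shSIRT1 libraries, against 59.6, 61.9 and 54.0 CPM in the shfirefly libraries (-0.66 ± 0.06, adjusted p = 2.7e-09). In both genes the groups were well apart. ATG14, which directs the lipid kinase to autophagy, was at 27.6, 24.0 and 25.6 CPM in the shSIRT1 libraries, against 38.8, 40.1 and 35.0 CPM in the shfirefly libraries (-0.56 ± 0.07, adjusted p = 3.5e-07), also without overlap. ATG9A shares 38.8% of its exon bases with a gene of the same strand that held 6 counts in all libraries together.

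ATG2B, a lipid transfer protein that feeds the growing membrane, was the 1 autophagy gene that rose. It was at 39.9, 39.9 and 39.4 CPM in the shSIRT1 libraries, against 32.2, 29.5 and 33.7 CPM in the shfirefly libraries, without overlap (0.32 ± 0.06, adjusted p = 8.1e-05). Its paralogue ATG2A was not called (0.08 ± 0.07, adjusted p = 0.34), though it was called higher with library totals alone and with the GC content and length offset, nor was ATG9B, at about 1 CPM (-0.45 ± 0.27, adjusted p = 0.17). ULK1, the initiating kinase, was at 43.1, 36.9 and 37.2 CPM in the shSIRT1 libraries, against 43.4, 46.3 and 41.8 CPM in the shfirefly libraries. The groups overlapped through shSIRT1 replicate 1, and the call (-0.16 ± 0.06, adjusted p = 0.032) was lost in 9 of the 17 alternatives, with adjusted p-values up to 0.85. Without shSIRT1 replicate 2 or 3 its adjusted p was 0.16 and 0.14, and without shfirefly replicate 1 or 2 it was 0.053 and 0.15. Of its partners in the kinase complex, ATG13 (-0.04 ± 0.05) and ATG101 (0.02 ± 0.05) overlapped between the groups. RB1CC1, a further partner outside the symbol rule, varied widely and was not called (0.93 ± 0.39, adjusted p = 0.12). It was at 32.8, 21.9 and 52.6 CPM in the shSIRT1 libraries, against 16.7, 17.2 and 21.9 CPM in the shfirefly libraries.

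The conjugation genes gave log2 fold changes between -0.17 and 0.06. ATG7, the enzyme that activates both ubiquitin-like chains, and ATG3, which passes ATG8 proteins to lipid, gave 0.06 ± 0.06 and 0.02 ± 0.05. ATG5 and ATG12, which are joined into the conjugate that directs lipidation, gave -0.01 ± 0.05 and -0.04 ± 0.05, and ATG10, the enzyme that joins them, gave -0.17 ± 0.10 (adjusted p = 0.16). The ATG4 proteases, which trim ATG8 proteins before conjugation and release them afterwards, gave log2 fold changes from -0.13 for ATG4D to 0.22 for ATG4C, with overlapping groups in all 4.

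The proton pump changed little in its summed level. Of 24 pump genes 20 were tested, 6 were lower and 2 were higher, with a median log2 fold change of -0.09. The share called was 40%, beside 52.8% of all genes tested. The summed level of the pump genes was 1119 ± 18.3 CPM in the shSIRT1 libraries and 1197 ± 19.9 CPM in the shfirefly libraries (SD, n = 3 each), or 6.55% less. This is smaller than the gap between the TMM factors of the groups, so its sign depends on the scaling. With library totals alone 7 pump genes were higher and 5 lower. Of the 11 tested V1 genes 9 were not called. The catalytic subunit ATP6V1A gave a log2 fold change of 0.05 ± 0.04, and ATP6V1E1, a stalk subunit, gave 0.06 ± 0.04. Other settings called some of the 9. With the GC content and length offset ATP6V1C1 (-0.31), ATP6V1D (-0.18) and ATP6V1H (-0.15) were lower. Upper-quartile factors gave these genes and ATP6V1G1 as lower. With library totals alone ATP6V1A (0.17), ATP6V1B2 (0.11) and ATP6V1E1 (0.18) were higher.

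Among the abundant subunits, ATP6V1B2, the non-catalytic partner in the ATP-splitting ring, was at 85.2, 88.6 and 86.1 CPM in the shSIRT1 libraries, against 86.1, 86.6 and 88.8 CPM in the shfirefly libraries. These values overlapped (-0.01 ± 0.04, adjusted p = 0.88), although with library totals alone the sign turned and the gene was called higher (0.11, adjusted p = 0.024). ATP6V1D, of the central rotor, was at 84.0, 87.8 and 86.5 CPM in the shSIRT1 libraries, against 86.1, 93.3 and 92.1 CPM in the shfirefly libraries, with overlap (-0.07 ± 0.04, adjusted p = 0.18). ATP6V1G1, of the outer stalk, was at 64.5, 68.7 and 71.7 CPM in the shSIRT1 libraries, against 71.8, 74.5 and 72.2 CPM in the shfirefly libraries. Its ranges were separate by a small margin and the test was not passed (-0.09 ± 0.05, adjusted p = 0.10).

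ATP6V1F, a rotor subunit and per kb the most abundant pump gene, was at 55.5, 56.0 and 58.9 CPM in the shSIRT1 libraries, against 69.0, 69.0 and 64.5 CPM in the shfirefly libraries. It was lower throughout (-0.25 ± 0.05, adjusted p = 0.00014). Per kb this came to 72.0 CPM in the shSIRT1 and 85.6 CPM in the shfirefly libraries. ATP6V1C2, a tissue-restricted form of a stator subunit, was at 1.53, 3.00 and 2.03 CPM in the shSIRT1 libraries, against 3.52, 2.92 and 4.94 CPM in the shfirefly libraries. The groups overlapped (-0.80 ± 0.25, adjusted p = 0.018), and the call was lost without shSIRT1 replicate 3 (adjusted p = 0.073). The other V1 genes were not called: ATP6V1C1 (-0.10 ± 0.04, adjusted p = 0.077) was lower in every shSIRT1 library, while ATP6V1H (-0.08 ± 0.05), ATP6V1E2 (-0.18 ± 0.12) and the brain form ATP6V1G2 (-0.52 ± 0.39, on 33 counts in shSIRT1 and 48 in shfirefly) overlapped between the groups.

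In the V0 sector 2 genes rose and 2 fell, and in both subunits concerned the paralogues went opposite ways. Called genes made up 57.1% of the 7 tested V0 genes, near the 52.8% of all genes tested. The a subunit holds the proton channels and decides which membrane the pump is sent to. Its form a2, ATP6V0A2 (chromosome 12, 123712318 to 123761755), known from the Golgi and endosomes, was at 22.8, 24.0 and 21.5 CPM in the shSIRT1 libraries, against 18.1, 18.0 and 17.7 CPM in the shfirefly libraries (0.34 ± 0.07, adjusted p = 0.00024). The form a1, ATP6V0A1, known from neurons, was at 23.8, 24.1 and 24.0 CPM in the shSIRT1 libraries, against 28.6, 27.4 and 28.6 CPM in the shfirefly libraries (-0.24 ± 0.06, adjusted p = 0.0024). Neither gene overlapped between the groups, but the fall of ATP6V0A1 was lost with library totals alone (adjusted p = 0.12). The count ratio of ATP6V0A2 to ATP6V0A1 was 0.950 ± 0.051 in the shSIRT1 libraries and 0.637 ± 0.019 in the shfirefly libraries. TCIRG1, which encodes the a3 form of lysosomes and osteoclasts and lies outside the symbol rule, was the most abundant of the 3 per kb, at 8.74 CPM per kb in the shSIRT1 and 9.15 in the shfirefly libraries, and was not called (-0.07 ± 0.06, adjusted p = 0.35).

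The small e subunit showed the same opposition. ATP6V0E2 was at 55.1, 55.5 and 52.2 CPM in the shSIRT1 libraries, against 43.7, 44.9 and 44.8 CPM in the shfirefly libraries (0.29 ± 0.05, adjusted p = 3.8e-05). ATP6V0E1 was at 91.3, 93.6 and 90.7 CPM in the shSIRT1 libraries, against 104, 111 and 107 CPM in the shfirefly libraries (-0.22 ± 0.04, adjusted p = 9.6e-05). Both pairs of groups were separate, and both calls held under all 17 alternatives. The count ratio of ATP6V0E2 to ATP6V0E1 was 0.590 ± 0.014 in the shSIRT1 libraries and 0.414 ± 0.0083 in the shfirefly libraries.

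**Figure D3:**
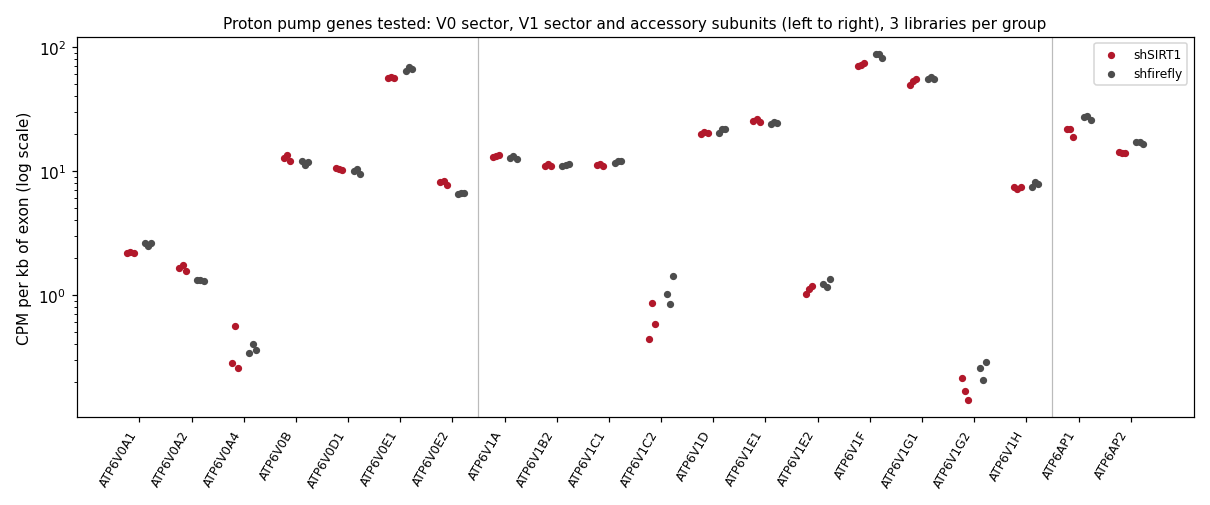
CPM per kb of exon (vertical axis, log scale) of the 20 tested pump genes in each of the 3 shSIRT1 libraries (red, left of each pair) and 3 shfirefly libraries (grey, right). Levels span more than 2 orders between genes, while within a gene the groups lie close together: they overlap in 10 genes, and of the called genes ATP6V0A2 and ATP6V0E2 are higher in shSIRT1 and ATP6V0A1, ATP6V0E1, ATP6V1F, ATP6V1C2, ATP6AP1 and ATP6AP2 lower (ATP6V0A1 not with library totals alone).

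Ratios were formed for 8 pairs of related genes within each library, which removes the library scaling. It does not remove an effect of GC content or length that differs between the genes of a pair. Ratios with an offset for these were not formed. In 5 pairs the groups did not overlap, and for each of these the exact two-sided permutation p was 0.1, the smallest that 3 libraries against 3 can give, or 0.16 after Benjamini-Hochberg adjustment over the 8 pairs. Separate ranges were common in this comparison: as single genes, 59.7% of all tested had them. Ratios of other gene pairs were not formed. The log2 differences (shSIRT1 minus shfirefly) were 0.58 for ATP6V0A2 over ATP6V0A1, 0.51 for ATP6V0E2 over ATP6V0E1 and 0.24 for ATG2B over ATG2A. They were -0.50 for LAMP1 over LAMP2 and -0.44 for GABARAPL1 over GABARAPL2. The pairs ATP6V1C2 over ATP6V1C1, ATP6V1E2 over ATP6V1E1 and ATG9B over ATG9A overlapped between the groups. The pairs were chosen with the fold changes known, and a ratio shows unequal change, not which gene moved.

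**Figure D4:**
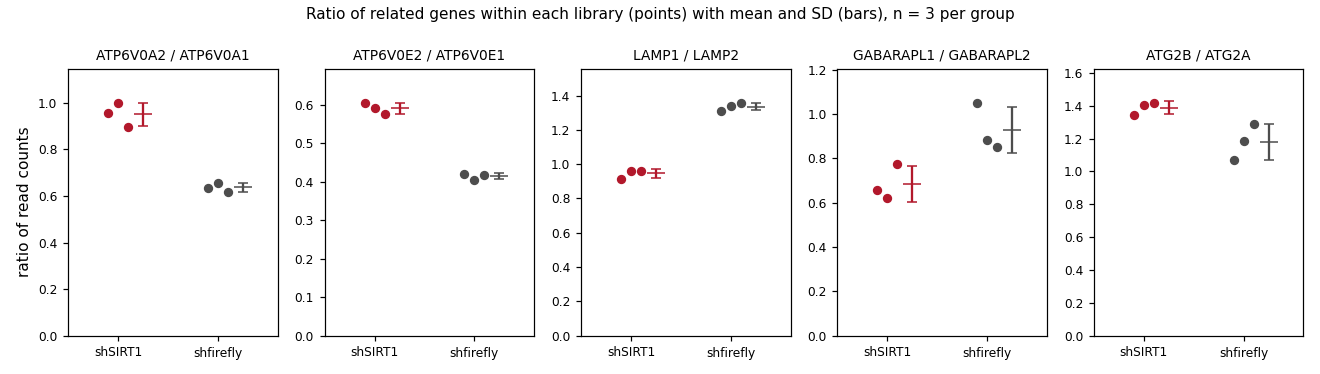
Ratio of read counts of 5 pairs of related genes (vertical axes, from 0) in each of the 3 shSIRT1 and 3 shfirefly libraries, with the group mean and SD. The 3 shSIRT1 points lie above the shfirefly points for ATP6V0A2 over ATP6V0A1, ATP6V0E2 over ATP6V0E1 and ATG2B over ATG2A, and below them for LAMP1 over LAMP2 and GABARAPL1 over GABARAPL2.

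Both accessory subunits of the pump fell. ATP6AP1 (Ac45), which helps assemble the V0 sector, was at 107, 107 and 91.9 CPM in the shSIRT1 libraries, against 132, 136 and 126 CPM in the shfirefly libraries (-0.37 ± 0.05, adjusted p = 1.6e-05). ATP6AP2, also known as the prorenin receptor, was at 137, 134 and 134 CPM in the shSIRT1 libraries, against 164, 165 and 156 CPM in the shfirefly libraries (-0.26 ± 0.04, adjusted p = 6.5e-06). Neither overlapped between the groups. Of the other V0 genes, ATP6V0B was higher in each shSIRT1 library without passing the test (0.12 ± 0.06, adjusted p = 0.066), while ATP6V0D1 (0.05 ± 0.04) and ATP6V0A4, the kidney form of subunit a at about 1.5 CPM (0.02 ± 0.27), overlapped. ATP6V0B was called higher in 5 of the 17 alternatives and ATP6V0D1 in 3.

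The 4 pump genes not tested were ATP6V0C, ATP6V0D2, ATP6V1B1 and ATP6V1G3. ATP6V0C encodes the proton-carrying ring subunit that every V-ATPase needs, yet it held 12 counts in the shSIRT1 and 18 in the shfirefly libraries. Of its exon bases 72.1% are shared with 3 other genes of the same strand, of which 1 held 92 counts in the shSIRT1 and 91 in the shfirefly libraries and the other two held 0, and whether reads were lost to that overlap was not tested, so its level was not read from these data. ATP6V0D2, the osteoclast form of subunit d, held 6 counts in the shSIRT1 and 9 in the shfirefly libraries. ATP6V1B1 and ATP6V1G3, forms known from the kidney, held 4 and 2 counts in the shSIRT1 libraries, against 2 and 1 in the shfirefly libraries.

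Further genes of the same pathways were taken from lists by role. Of 41 tested lysosomal enzymes and membrane proteins outside the set, 33 were lower and 0 higher, with a median log2 fold change of -0.34 (33 and 0 at an unadjusted p under 0.05, 32 and 0 by DESeq2). Thus 80.5% were lower, beside 26% of all genes tested. The lower count was 27 to 33 under the alternatives, and 3 of these genes were called higher with library totals alone and 2 with the GC content and length offset. Acid alpha-glucosidase (GAA), which degrades glycogen in lysosomes, averaged 27.9 CPM in the shSIRT1 and 52.4 CPM in the shfirefly libraries (-0.91 ± 0.06, adjusted p = 5.2e-11). TPP1, a tripeptidyl peptidase that works beside the cathepsins, averaged 77.9 CPM in the shSIRT1 and 146 CPM in the shfirefly libraries (-0.90 ± 0.05, adjusted p = 8.5e-12). LGMN, the asparaginyl endopeptidase that processes several cathepsins, was lower as well (-0.41 ± 0.05, adjusted p = 3.8e-07). The fall of the cathepsins was thus accompanied by falls in most other lysosomal hydrolases measured.

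Of the 14 genes for sorting and delivery to lysosomes, 4 were higher and 4 lower (6 and 3 with library totals alone). The share called, 57.1%, was near the 52.8% of all genes tested. GNPTAB and GNPTG, whose products form the enzyme that tags hydrolases with mannose 6-phosphate, went opposite ways (0.34 ± 0.05, adjusted p = 1.5e-05, and -0.60 ± 0.06, adjusted p = 1.0e-08). CLN6, which helps hydrolases leave the endoplasmic reticulum, was higher (0.49 ± 0.08, adjusted p = 1.3e-05), and NAGPA, which uncovers the mannose 6-phosphate tag, was lower (-0.45 ± 0.08, adjusted p = 5.7e-05). Of 6 tested cathepsin inhibitors 3 were lower and 1 higher (2 and 3 with library totals alone), so 66.7% were called, beside 52.8% of all genes tested. The secreted inhibitor cystatin C (CST3) averaged 95.6 CPM in the shSIRT1 and 135 CPM in the shfirefly libraries (-0.49 ± 0.05, adjusted p = 1.4e-08), whereas the cytosolic inhibitor stefin B (CSTB) averaged 63.7 CPM in the shSIRT1 and 54.0 CPM in the shfirefly libraries (0.24 ± 0.05, adjusted p = 0.00029). CST7, an inhibitor known from immune cells, was at 0.493 CPM in the shSIRT1 and 1.67 CPM in the shfirefly libraries (-1.74 ± 0.32, adjusted p = 8.5e-05).

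Among 26 tested autophagy genes outside the symbol rule, 10 were lower and 3 higher (median log2 fold change -0.07). That balance depended on the scaling, with 5 lower and 7 higher for library totals alone and 7 lower and 5 higher for the GC content and length offset. Of the 26 genes 50% were called, near the 52.8% of all genes tested. The same holds for the selective receptors (52.6%) and the pump assembly genes (50%) below. PIK3R4, the scaffold of the lipid kinase, was higher (0.46 ± 0.06, adjusted p = 1.8e-06), as was ATG16L1, which guides ATG8 lipidation (0.37 ± 0.05, adjusted p = 8.6e-07). WDR45B, a relative of WIPI1, was lower (-0.51 ± 0.04, adjusted p = 2.7e-10). MAP1LC3B2, a near copy of MAP1LC3B with 280 counts in all against 39594 for MAP1LC3B, gave -0.57 ± 0.21 (adjusted p = 0.030), a call lost in 9 of 17 alternatives and open to shared reads. Of 19 tested receptors of selective autophagy 7 were lower and 3 higher, but 7 and 7 with library totals alone. CALCOCO1 (-0.85 ± 0.05, adjusted p = 1.7e-11) and FKBP8, a mitophagy receptor (-0.74 ± 0.04, adjusted p = 4.6e-12), fell most. FUNDC1, also a mitophagy receptor, was higher (0.56 ± 0.07, adjusted p = 1.4e-06), and the rise of TAX1BP1 (0.22 ± 0.05, adjusted p = 0.00088) was lost with the offset for GC content and length (adjusted p = 0.59). Of 14 tested genes for pump assembly and regulation 5 were higher and 2 lower (5 and 4 with upper-quartile factors, 5 and 0 with library totals alone). DMXL2, of the complex that puts V1 onto V0, rose (0.46 ± 0.06, adjusted p = 1.2e-05), while the calls of DMXL1 (0.40), OXR1 (-0.20) and CLCN7 (-0.17) were each lost under 3 or more alternatives.

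The markers of other cells were read beside these results. In SW1353 the chondrocyte list was thinly expressed, with 6 of 16 genes tested, COL9A1 at 0 counts and COL2A1 at 0.332 CPM in the shSIRT1 and 0.034 CPM in the shfirefly libraries. Of the 6, 3 were higher and 2 lower: SOX9 averaged 53.1 CPM in the shSIRT1 and 43.7 CPM in the shfirefly libraries, COL9A2 (1.35 ± 0.32, adjusted p = 0.0013) and MATN3 (0.35 ± 0.13, adjusted p = 0.032) were higher too, and the matrix genes ACAN (-1.16 ± 0.29, adjusted p = 0.0018) and HAPLN1 (-0.91 ± 0.12, adjusted p = 1.9e-06) were lower. The call of MATN3 was lost under 9 of the 17 alternatives. The summed level of the list was 65.0 to 66.2 CPM in the shSIRT1 and 56.5 to 63.1 CPM in the shfirefly libraries. Macrophage and osteoclast markers matter here because those cells are rich in cathepsins. The 10 macrophage genes, 2 of them tested, summed to 7.41 to 9.81 CPM in the shSIRT1 and 13.4 to 16.1 CPM in the shfirefly libraries, of which CSF1R (-0.90 ± 0.11) made up 82.0% to 85.6% in the shSIRT1 and 89.5% to 92.3% in the shfirefly libraries, while PTPRC, CD14 and CD68 averaged below 0.1 CPM in both groups. The 8 osteoclast genes, 5 of them tested, summed to 60.1 to 64.5 CPM in the shSIRT1 and 78.4 to 88.0 CPM in the shfirefly libraries, with DCSTAMP and OCSTAMP at 0 counts. Of the 5, 2 were lower and 1 higher. ITGB3, which made up most of the sum, averaged 41.9 CPM in the shSIRT1 and 64.3 CPM in the shfirefly libraries. ACP5 was lower (6.72 and 8.99 CPM), whereas CKB was higher (4.26 and 2.13 CPM). The mesenchymal list had 7 of 9 tested genes lower and 0 higher by edgeR, at an unadjusted p under 0.05 and by DESeq2, at 21704 to 22821 CPM in the shSIRT1 and 35025 to 38545 CPM in the shfirefly libraries. The 5 tested epithelial genes had 2 higher and 0 lower by the same 3 measures, at 366 to 386 CPM in the shSIRT1 and 313 to 323 CPM in the shfirefly libraries. Called genes made up 40% of the tested epithelial, 50% of the macrophage and 60% of the osteoclast genes. They made up 77.8% of the mesenchymal and 83.3% of the chondrocyte genes tested. Over all genes tested the share was 52.8%, so the epithelial, macrophage and osteoclast shares were near or below it. Single genes dominate the mesenchymal and epithelial sums. FN1, the largest mesenchymal part, averaged 9735 CPM in the shSIRT1 and 19857 CPM in the shfirefly libraries. KRT18 made up most of the epithelial sum (304 and 253 CPM), and CLDN4 was the other riser (10.6 and 3.43 CPM). KRT8 was not called and lay slightly lower in every shSIRT1 library (58.0 and 60.1 CPM), and CDH1 was at 0.337 and 0.269 CPM. The part of these shifts in the results above was not tested.

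The strand setting of the counting is not stated, so reads of genes that face another gene on the opposite strand may be mixed. Of the exon bases, 28.5% of CTSA, 28.1% of WIPI1, 22.0% of SQSTM1, 29.9% of ATP6V1C2 and 23.7% of ATP6V1F face such a gene. Annotated pseudogene copies of members held at most 12 counts in all libraries. The authors' deposited table holds an adjusted p for 58 of the 64 genes, of which 25 were under 0.05, with 22 lower and 3 higher.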

How the data were processed

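RNA was extracted from 6 cultures and sequenced from TruSeq Stranded mRNA libraries, per the labels' protocols. The submitters' processing notes list Trimmomatic, STAR, DESeq2 and the build GRCh38; the versions, read counter, annotation and strand setting were not given in the sources used here. The design text calls the 3 cultures of a group biological replicates. The deposited table holds raw read counts per gene, per the file headers, beside normalized counts that the authors rounded (a score, not used in tests) and the authors' own comparison, deposited as a linear ratio, as log2, and with its raw and adjusted p-value. Total counts were 24993064 to 29564361 in the shSIRT1 and 28556696 to 32044191 in the shfirefly libraries. PCR copies cannot be told from independent molecules, so limits for 0 counts cover counting error only.

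From the counts, genes were kept by filterByExpr (16591 of 60691), scaled by TMM (factors 1.038 to 1.048 for shSIRT1, 0.948 to 0.970 for shfirefly) and tested by edgeR 4.0.16 (R 4.3.3; robust quasi-likelihood F test on group, Benjamini-Hochberg over all genes tested, called at an adjusted p under 0.05). SE is the absolute log2 fold change over the square root of F. The common dispersion came to a coefficient of variation of 0.0541. No pair of replicates agreed within sampling noise (chi-square per gene 2.79 to 6.05 within and 57.4 to 89.9 between groups). On simulated counts of 16591 genes for this comparison, 100 of 100 genes changed 1.5-fold and 100 of 100 changed 2-fold were recovered, with 13 unchanged genes called. The changed genes were drawn only from those above a minimum mean level, and every gene was given the common dispersion. They were also few and split evenly between rises and falls, whereas 52.8% of all genes tested were called in the data. Scaling under such broad change was not tested. Recovery at the low levels of genes such as CTSO, CTSK and ATP6V1C2 was not tested. Coordinates, exon lengths and overlaps came from GENCODE 29 (GRCh38), matched by identifier without version for all 64 genes, of which 8 had the same version. Levels per kb use the union of annotated exons.

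Values per library are given for SIRT1, EPAS1, the 10 largest rises and falls among called genes of the set (3 rises exist), the 3 genes of each class highest per length, the 3 most abundant genes not called, and, outside that rule, other called genes of the set. Up to 2 rising and 2 falling genes were named per list by fold change. LGMN, SOX9, COL2A1, TCIRG1, ATF4, KRT8, RB1CC1 and the near-absent markers were named after their values were seen. The genes and lists were chosen with earlier results of these data known, so their counts describe and carry no test of their own. Alternatives were RLE and upper-quartile factors, library totals, DESeq2 1.42.0, other filters, a fit without robust estimation, an offset for GC content and length of the transcript (splines with 5 df; both known for 99.1% of tested genes), a replicate block, both together, each library left out in turn, and both libraries numbered 3 left out.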

Additional observations from a re-analysis of the deposited data

How the results depend on the processing

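Of the 24 genes lower in shSIRT1, 20 were called lower in all 17 alternatives, and all 3 higher genes were called higher in all 17; the exceptions among the lower ones were ULK1, ATP6V0A1, ATP6V1C2 and CTSK. Cathepsins numbered 8 to 10 lower and 0 higher throughout. Library totals alone gave 15 of the set higher (7 autophagy, 7 pump) and 22 lower, with 6225 genes higher and 3021 lower over the whole table, and turned ATP6V1B2 to 0.11. The GC content and length offset gave 7 higher (3 autophagy, 4 pump) and 30 lower, and turned LAMP2 to -0.14; together with the replicate block the counts were 7, 3 and 4, and LAMP2 was again at -0.14. Upper-quartile factors gave 10 pump genes lower. Leaving out 1 library in turn gave 22 to 25 lower and 3 to 4 higher genes in the set, with 1 to 2 autophagy genes higher (2 without shSIRT1 replicate 2). Why these settings differ was not tested. The replicate block alone kept 3 higher and 24 lower, beside 4711 higher and 4465 lower genes in all; same-numbered libraries correlated at -0.01, -0.07 and 0.13 in their deviations, so the numbers were not read as pairs. DESeq2 gave 3 higher and 22 lower. At this depth the cathepsins CTSK, CTSO, CTSV and CTSW rest on few counts.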

Other observations

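The signalling genes that sit on the lysosome and the transcription factors of autophagy were read from the same fit. Of 24 tested genes of the mTORC1 pathway, the kinase complex that restrains autophagy at the lysosome, 10 were lower and 2 higher in the shSIRT1 libraries, with a median log2 fold change of -0.09. The share called, 50%, was near the 52.8% of all genes, and library totals alone gave 8 lower and 6 higher, the GC content and length offset 12 lower and 4 higher. The kinase MTOR averaged 100 CPM in the shSIRT1 and 72.9 CPM in the shfirefly libraries (0.46 ± 0.05, adjusted p = 2.3e-08, edgeR). Its nutrient sensors SESN2 and SESN3 were lower (-0.98 ± 0.06, adjusted p = 5.0e-12, and -0.65 ± 0.13, adjusted p = 0.00021). TBC1D7, of the TSC complex, gave 0.25 ± 0.10 (adjusted p = 0.042), a call lost in 8 of 17 alternatives.

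Of 11 tested transcription factors tied to autophagy 5 were lower and 2 higher (5 and 3 with library totals alone, 7 and 2 with upper-quartile factors). The share called was 63.6%, beside 52.8% of all genes tested. The lower ones include EPAS1, which the treatment protocol names as the target of the hairpin, whereas the titles, the treatment field and the design name SIRT1. Whether its fall is that of a direct target was not tested. MITF averaged 121 CPM in the shSIRT1 and 76.6 CPM in the shfirefly libraries (0.66 ± 0.05, adjusted p = 1.2e-10), and FOXO1 3.59 CPM in the shSIRT1 and 2.41 CPM in the shfirefly libraries (0.57 ± 0.16, adjusted p = 0.0047). TFEB, at 5.04 CPM in the shSIRT1 and 6.01 CPM in the shfirefly libraries, and TFE3, at 165 CPM and 175 CPM, did not pass the test (adjusted p = 0.074 and 0.075). DDIT3 averaged 17.9 CPM in the shSIRT1 and 53.5 CPM in the shfirefly libraries (-1.58 ± 0.06, adjusted p = 3.0e-14), and ATF4 averaged 297 CPM in the shSIRT1 and 471 CPM in the shfirefly libraries (-0.67 ± 0.04, adjusted p = 5.1e-12). Whether any of these factors acts on the genes of the set was not tested.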
